A study of Mus musculus with 29 samples.

Results

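The methionine cycle and the transsulfuration route in mouse lung were followed through 9 enzyme genes: Mat2a, Gnmt, Ahcy and Mtr of the cycle, Cbs and Cth of transsulfuration, and Cdo1, Mpst and Suox of cysteine and sulfur breakdown. The 9 were taken by name, and every probe whose accession belongs to one of them was used, out of 17178 genes named by at least 1 probe. Each had 1 probe on the array. RNA of whole lung was measured on 29 single-colour arrays, 1 for each C57BL/6 mouse sample of 6 to 8 weeks, to ask how the glucocorticoid receptor and the transcription factor Klf15 together shape gene expression. Klf15 knockout (KO) mice made up 4 groups: dexamethasone, a synthetic glucocorticoid, at 2.5 mg/kg for 4 h (4 arrays) or 8 h (4 arrays), and saline for 4 h (3 arrays) or 8 h (4 arrays). Wild-type (WT) mice made up the other 4: dexamethasone at 2.5 mg/kg for 4 h (4 arrays) or 8 h (3 arrays), and saline for 4 h (4 arrays) or 8 h (3 arrays). The labels give neither the tissue in which Klf15 is lost nor how the allele was made, and whole lung mixes many cell types.

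The methionine cycle turns methionine into S-adenosylmethionine, the methyl donor of the cell (Mat2a), spends the methyl group in transferases such as glycine N-methyltransferase (Gnmt), splits the product S-adenosylhomocysteine into homocysteine (Ahcy) and methylates homocysteine back to methionine with a folate-borne group (Mtr). Homocysteine leaves the cycle when cystathionine beta-synthase (Cbs) joins it to serine and cystathionine gamma-lyase (Cth) releases cysteine. Cysteine is then oxidised by cysteine dioxygenase (Cdo1) toward taurine and sulfite, its sulfur can pass through 3-mercaptopyruvate sulfurtransferase (Mpst), and sulfite oxidase (Suox) turns sulfite into sulfate. Gnmt, Cbs and Cth are best known from liver, and Klf15 is known as a regulator of amino acid breakdown in liver and muscle.

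Levels are log2 signals relative to the 75th percentile of the array's own probes, so that 0 is that percentile and each step of 1 is a doubling. All 9 genes were well above background on all 29 arrays and passed the filter on dim probes. Differences come from 1 limma model over all arrays and 15350 genes, and a gene is called at a Benjamini-Hochberg adjusted p under 0.05 over all genes of the comparison. Levels of different probes have no common scale and are not set against each other. In bulk RNA, fewer cells of a type and less RNA per cell cannot be told apart. Of the spots on an array, 75.5 to 88.5% were well above background. Klf15 itself lay between -0.82 and 1.45 on the 15 KO arrays, against 2.05 to 4.37 on the 14 WT arrays. The sources do not say whether its probe lies in the deleted stretch, so this separates the labelled genotypes but does not check the deletion. Its signal was higher under dexamethasone in KO too, by 1.93 at 4 h and 0.93 at 8 h, beside 1.93 and 0.79 in WT. Tsc22d3, a known glucocorticoid target, was higher under dexamethasone by 1.71 and 0.58 in KO and by 1.54 and 0.47 in WT. Fkbp5, another such target, differed by 4.23 and 1.32 in KO and by 3.07 and -0.02 in WT, and Nr3c1, the receptor itself, by -0.33 and -0.26 in KO and by -0.81 and -0.26 in WT. The 7 KO saline arrays stood apart in 1 technical measure. The mean log2 ratio of the bright to the dim probe of a gene, over 2546 genes, was -0.368 to -0.116 on them, against -0.0836 to 0.286 on the other 22 arrays. For the 9 genes, values with this ratio as a covariate are given beside results that rest on those arrays and change with it.

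Markers of other cell types also moved with treatment. The summed level of 5 B cell markers, in multiples of the 75th percentile, was 1.77 to 3.82 over the dexamethasone arrays of KO mice and 1.79 to 3.57 over those of WT mice, against 6.37 to 9.98 over the saline arrays of KO mice and 6.81 to 14.2 over those of WT mice. The 6 liver markers on the array, of which Alb and 3 others were well above background on all 29 arrays, summed to 0.825 to 3.29 under dexamethasone and to 3.58 to 5.22 under saline. Sums of the endothelial markers were 63.03 to 80.6 under dexamethasone and 86.4 to 115.8 under saline. Sftpc, the surfactant gene of alveolar epithelium, lay between 7.23 and 8.26 on the log2 scale. Lung epithelial markers summed to 303.8 to 823.4 under dexamethasone and 442.2 to 656.3 under saline. A marker without a value on an array counted as 0 in its sum. The 303.8, in KO mice at 4 h, lies below what all 7 markers at their lowest levels would give, so it lacks at least 1 marker. The lowest sums in the other dexamethasone groups were 571.7, 603.1 and 623.2. Macrophage markers summed to 100.9 to 129.8 over the dexamethasone arrays of KO mice and 99.8 to 115.7 over those of WT mice, against 74.5 to 92.5 over the saline arrays of KO mice and 89.4 to 107.3 over those of WT mice. Adipocyte markers at 8 h summed to 14.8 to 34.5 in dexamethasone-treated KO mice, against 6.09 to 6.92 in saline-treated KO mice. Their sums overlapped between treatments in KO at 4 h (8.15 to 18.6 against 8.06 to 16.5). They also overlapped in WT at 4 h (12.0 to 13.8 against 7.23 to 12.9) and at 8 h (11.6 to 12.4 against 7.69 to 12.7). T cell markers summed to 0.389 to 0.715 under dexamethasone and 1.0 to 1.92 under saline, and NK cell markers to 0.222 to 1.66 under dexamethasone and 1.07 to 3.05 under saline. The part of cell composition in the results below was not tested.

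In WT lung, Gnmt, Cbs, Cth and Suox rose with dexamethasone at both times, and Cdo1 fell at 4 h and rose at 8 h. At 4 h, 5 of the 9 genes were called, where 36.7% of all genes were called. Of these, 4 rose and 1 fell, against 14.3% of all genes that rose and 22.4% that fell. The treatments did not overlap for 6 of the 9, against 33.9% of all genes. At 8 h, 5 of 9 were called against 23.6% of all genes, and all 5 rose, against 9.32% of all genes that rose and 14.3% that fell. They were also the 5 genes whose treatments did not overlap, against 38% of all genes. The median change of the 9 was 0.04 at 4 h and 0.38 at 8 h, beside medians of -0.03 and -0.06 over all genes tested. The plot of dexamethasone effects shows all 9 genes in both genotypes.

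**Figure D1:**
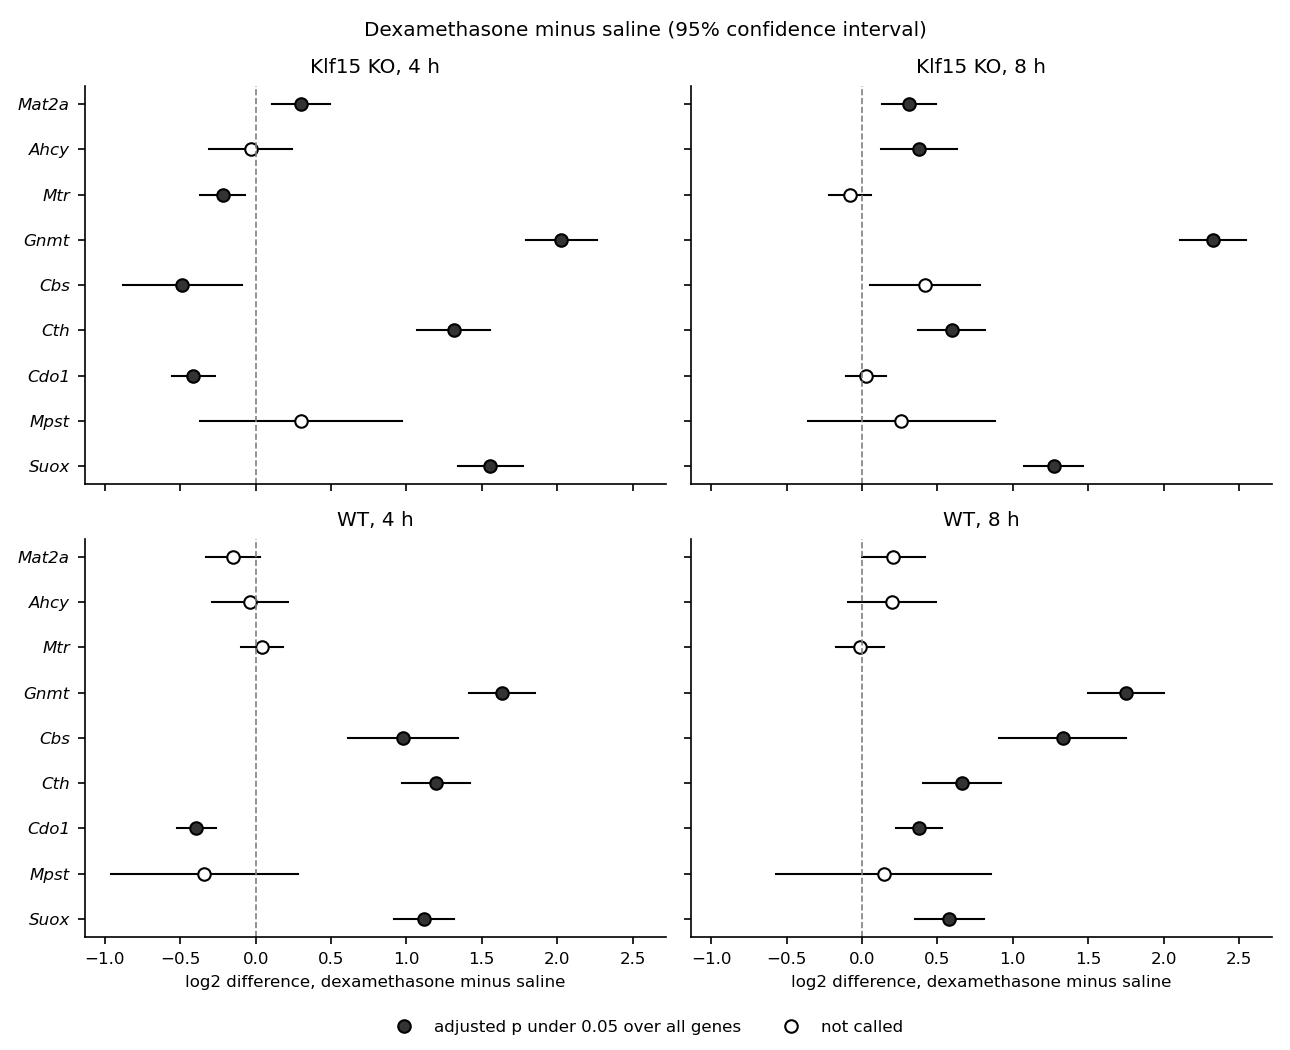
Log2 difference (horizontal axis) between dexamethasone and saline for each of the 9 genes (rows), in Klf15 KO (upper panels) and WT (lower panels) at 4 and 8 h. Points are limma estimates, lines are 95% confidence intervals, and filled points are called. Gnmt, Cth and Suox lie right of 0 in all 4 panels, while Cbs lies at 0.98 and 1.33 in WT and at -0.49 and 0.42 in KO.

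Gnmt consumes S-adenosylmethionine to methylate glycine and so sets the ratio of methyl donor to its product. At 4 h it stood at 1.90, 1.99, 1.83 and 1.80 on the WT dexamethasone arrays, against 0.30, 0.21, 0.12 and 0.35 on the WT saline arrays. At 8 h it stood at 2.34, 2.28 and 2.35 under dexamethasone, against 0.48, 0.71 and 0.54 under saline. No dexamethasone array came near a saline array at either time. The rise was 3.1-fold at 4 h (log2 difference 1.63, SE 0.106, limma adjusted p = 2.84e-11) and 3.36-fold at 8 h (1.75, SE 0.122, adjusted p = 1.45e-09). By size of rise Gnmt ranked 138 and 39 among the 15350 genes.

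Cbs, the entry enzyme of transsulfuration, also rose at both times. Its 4 h levels were -2.06, -2.12, -1.77 and -1.90 on the WT dexamethasone arrays, against -2.75, -3.02, -3.06 and -2.94 on the WT saline arrays. The 8 h levels were -1.24, -1.58 and -1.42 under dexamethasone, against -2.79, -2.69 and -2.77 under saline. The 2 treatments did not overlap at either time. Cbs rose 1.97-fold at 4 h (0.98, SE 0.176, adjusted p = 0.000102) and 2.52-fold at 8 h (1.33, SE 0.204, adjusted p = 4.14e-05).

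Cth, which releases cysteine from cystathionine, had its larger rise at 4 h. It stood at 0.68, 0.66, 0.45 and 0.38 on the WT dexamethasone arrays, against -0.59, -0.80, -0.72 and -0.50 on the WT saline arrays. The 8 h levels were -0.13, -0.08 and 0.12 under dexamethasone, against -0.75, -0.73 and -0.60 under saline. All dexamethasone arrays were above all saline arrays of their time. The rise was 2.29-fold at 4 h (1.20, SE 0.108, adjusted p = 6.89e-09) and 1.58-fold at 8 h (0.66, SE 0.125, adjusted p = 0.000398).

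Suox, the mitochondrial enzyme that clears sulfite, followed a similar course. Its levels at 4 h were 3.03, 3.22, 3.35 and 3.18 on the WT dexamethasone arrays, against 2.05, 2.06, 1.89 and 2.32 on the WT saline arrays. By 8 h the levels were 2.63, 2.58 and 2.55 under dexamethasone, against 1.96, 1.98 and 2.09 under saline. The treatments were apart at both times. Suox rose 2.17-fold at 4 h (1.11, SE 0.0961, adjusted p = 3.32e-09) and 1.49-fold at 8 h (0.58, SE 0.111, adjusted p = 0.000481).

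Cdo1 commits cysteine to oxidation, and its response in WT lung turned direction between the times. At 4 h it stood at 2.97, 2.99, 3.14 and 2.97 on the dexamethasone arrays, against 3.47, 3.33, 3.44 and 3.41 on the saline arrays. At 8 h it stood at 3.76, 3.77 and 3.81 under dexamethasone, against 3.36, 3.51 and 3.32 under saline. Every dexamethasone array was below the saline arrays at 4 h and above them at 8 h. Cdo1 was 1.31-fold lower at 4 h (-0.39, SE 0.0635, adjusted p = 2.82e-05) and 1.30-fold higher at 8 h (0.38, SE 0.0733, adjusted p = 0.000521). These 10 calls on Gnmt, Cbs, Cth, Suox and Cdo1 in WT held under every alternative tried.

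The core enzymes of the cycle itself were not called in WT lung. Mat2a, the subunit that makes S-adenosylmethionine outside the liver, differed by -0.15 at 4 h (adjusted p = 0.196), although its 4 dexamethasone arrays (4.37 to 4.46) lay below its 4 saline arrays (4.54 to 4.59). With quantile normalization this difference was -0.28 (adjusted p = 0.0387). At 8 h Mat2a differed by 0.21 (adjusted p = 0.142). Ahcy, the hydrolase of S-adenosylhomocysteine, differed by -0.04 at 4 h and 0.20 at 8 h (adjusted p = 0.852 and 0.35). Mtr, methionine synthase, differed by 0.04 and -0.01 (adjusted p = 0.695 and 0.915), with 95% intervals of -0.10 to 0.18 at 4 h and -0.18 to 0.15 at 8 h. Mpst differed by -0.34 and 0.14 (adjusted p = 0.411 and 0.818), and its wide intervals, -0.96 to 0.28 and -0.57 to 0.86, leave changes of that size undetectable here.

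**Figure D2:**
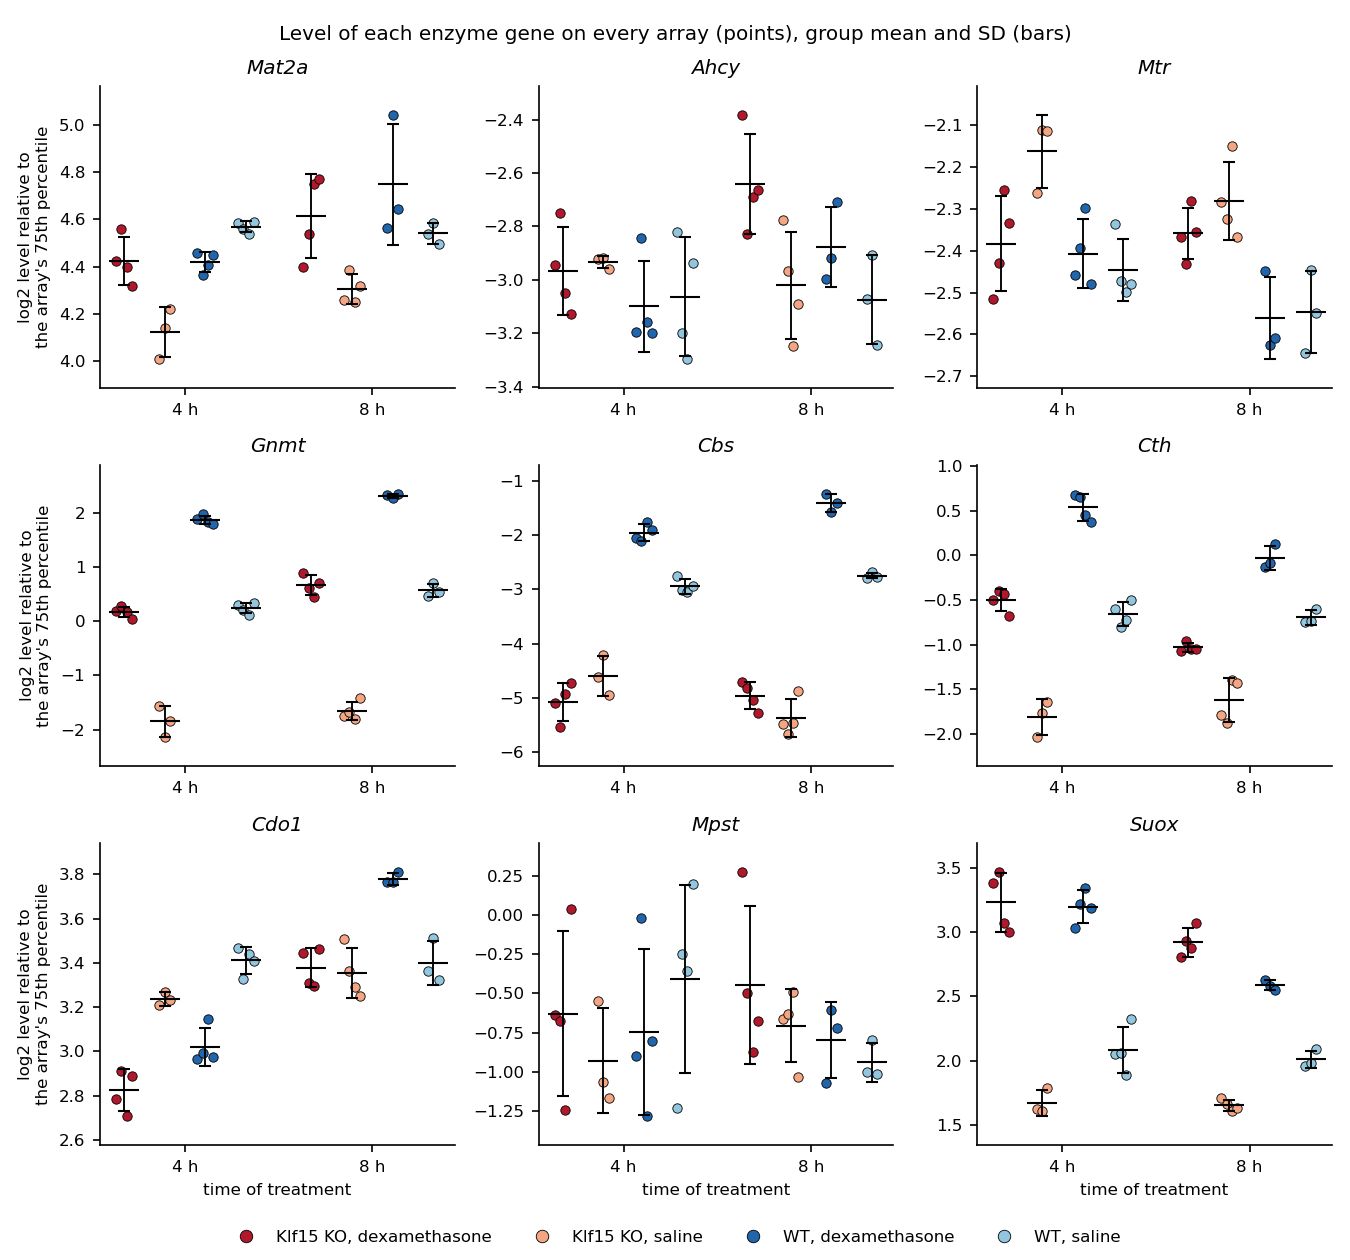
Log2 level of each gene relative to the array's 75th percentile (vertical axis, own scale in each panel) on every array (points), by time of treatment (horizontal axis) and group (colour), with group means and SD as bars. Gnmt, Cbs and Cth are lower in KO than in WT at equal treatment and time, and Suox follows treatment at both times, with KO dexamethasone levels of 2.81 to 3.47.

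In KO lung, dexamethasone also raised Gnmt, Cth and Suox at both times, but Cbs was not raised at 4 h. At 4 h, 7 of the 9 genes were called against 42.7% of all genes, and the treatments did not overlap for 5, against 45.3% of all genes. Gnmt, Suox, Cth and Mat2a rose, where 25% of all genes rose, and Cdo1, Cbs and Mtr fell, where 17.6% of all genes fell. At 8 h, 5 of 9 were called against 43% of all genes, and the groups did not overlap for 4, against 36.9% of all genes. All 5 rose (Gnmt, Suox, Cth, Ahcy and Mat2a), where 25.8% of all genes rose and 17.2% fell. The median change of the 9 was 0.30 at 4 h and 0.38 at 8 h, beside 0.05 and 0.11 over all genes.

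Gnmt at 4 h stood at 0.20, 0.29, 0.17 and 0.05 on the KO dexamethasone arrays, against -1.56, -2.14 and -1.84 on the KO saline arrays. The 8 h levels were 0.89, 0.61, 0.45 and 0.71 under dexamethasone, against -1.75, -1.67, -1.80 and -1.41 under saline. The gap between treatments was wider than the spread within either at both times. The rise was 4.07-fold at 4 h (2.03, SE 0.114, adjusted p = 3e-12) and 5.01-fold at 8 h (2.33, SE 0.106, adjusted p = 2.19e-13).

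Suox at 4 h stood at 3.38, 3.47, 3.07 and 3.003 on the KO dexamethasone arrays, against 1.62, 1.61 and 1.79 on the KO saline arrays. By 8 h the levels were 2.81, 2.93, 2.88 and 3.07 under dexamethasone, against 1.71, 1.66, 1.61 and 1.63 under saline. Again no array of one treatment reached the other. Suox rose 2.94-fold at 4 h (1.56, SE 0.104, adjusted p = 4.97e-11) and 2.41-fold at 8 h (1.27, SE 0.0961, adjusted p = 5.69e-10). With the bright to dim ratio as a covariate the rises were 1.21 and 0.98 (adjusted p = 5.68e-07 and 1.85e-06).

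Cth at 4 h stood at -0.50, -0.40, -0.43 and -0.68 on the KO dexamethasone arrays, against -2.04, -1.76 and -1.64 on the KO saline arrays. At 8 h it stood at -1.08, -0.95, -1.04 and -1.04 under dexamethasone, against -1.78, -1.88, -1.40 and -1.43 under saline. The dexamethasone arrays were the higher ones throughout. The rise was 2.48-fold at 4 h (1.31, SE 0.117, adjusted p = 5.31e-09) and 1.51-fold at 8 h (0.59, SE 0.108, adjusted p = 0.000116).

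Cbs in KO lung was low under both treatments. At 4 h it stood at -5.10, -5.54, -4.94 and -4.73 on the dexamethasone arrays, against -4.61, -4.22 and -4.95 on the saline arrays. The groups overlapped, and the fall of 0.49 on the log2 scale (SE 0.19, adjusted p = 0.0432) was not stable. With the bright to dim ratio as a covariate the difference turned positive, at 0.07 (adjusted p = 0.857), and within the slide that held both groups it was also positive, at 0.01. With slide as a fixed block it was -0.50 (adjusted p = 0.0643). Its call ended without KO saline replicate 41 (-0.49, adjusted p = 0.0824) or 43 (-0.30, adjusted p = 0.282), and without KO dexamethasone replicate 57 (-0.48, adjusted p = 0.0732) or 58 (-0.33, adjusted p = 0.174). At 8 h Cbs stood at -4.71, -4.83, -5.04 and -5.27 under dexamethasone, against -5.49, -5.68, -5.47 and -4.87 under saline. Those groups also overlapped, and the difference of 0.42 (SE 0.176) had an adjusted p of 0.0609. With the covariate it was 0.88 (adjusted p = 0.00483).

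Cdo1 fell in KO lung at 4 h as in WT lung. It stood at 2.78, 2.91, 2.71 and 2.89 on the dexamethasone arrays, against 3.21, 3.27 and 3.23 on the saline arrays, with no overlap (-0.41, SE 0.0685, adjusted p = 3.69e-05). At 8 h its levels overlapped, with 3.45, 3.31, 3.30 and 3.46 under dexamethasone and 3.51, 3.36, 3.29 and 3.25 under saline (0.03, adjusted p = 0.77).

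Smaller calls in KO lung fell on the cycle enzymes and each ended under several alternatives. Mat2a rose by 0.30 at 4 h (adjusted p = 0.012) and by 0.31 at 8 h (adjusted p = 0.00592), but by 0.07 and 0.12 with the bright to dim ratio as a covariate (adjusted p = 0.699 and 0.431). Its 4 h call also ended without KO saline replicate 41 (0.24, adjusted p = 0.0728). Ahcy rose by 0.38 at 8 h (adjusted p = 0.0153), with overlapping groups, and the call ended without KO saline replicate 47 (0.30, adjusted p = 0.0676) or KO dexamethasone replicate 61 (0.29, adjusted p = 0.0659). With the ratio covariate the difference for Ahcy was 0.28 (adjusted p = 0.234). Mtr fell by 0.22 at 4 h (adjusted p = 0.0172), also with overlap, and the call ended without KO saline replicate 43 or 44 (adjusted p = 0.0751 and 0.0722) or KO dexamethasone replicate 57 (adjusted p = 0.0664). With the ratio covariate the difference for Mtr was -0.18 (adjusted p = 0.228). Mpst was not called in KO lung, with differences of 0.30 at 4 h and 0.26 at 8 h (adjusted p = 0.499 and 0.511).

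Cbs, Gnmt and Cth were lower in KO than in WT lung under both treatments and at both times. They cover the entry and exit steps of transsulfuration and the glycine methyltransferase of the cycle. Averaged over treatments and times, Cbs in KO lung was at 15.0% of its WT level (log2 difference -2.73, SE 0.0935, adjusted p = 6.92e-16). Over the alternatives tried, this difference lay between -2.92 and -1.76. Gnmt was at 26.4% (-1.92, SE 0.056, adjusted p = 7.48e-17) and Cth at 48.9% (-1.03, SE 0.0573, adjusted p = 4.6e-12). By size of the averaged fall, Cbs ranked 6, Gnmt 9 and Cth 21 among the 15350 genes. In this averaged comparison 6 of the 9 genes were called, 5 lower and 1 higher, where 19.4% of all genes were called, 11.2% lower and 8.27% higher. The others were Cdo1 (-0.20, adjusted p = 0.000224), Mat2a (-0.20, adjusted p = 0.00379, and 0.137 with the bright to dim ratio as a covariate) and Mtr, the one that was higher (0.19, adjusted p = 0.00064).

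The promoters of Cbs and Gnmt, from RefSeq on build GRCm38.p6, are shown because these are the members with the largest genotype differences. Each window of 300 bases spans the annotated start, lies mostly before it, and is on the minus strand. Capitals mark CACCC or its reverse complement GGGTG, the core of the sites that Krüppel-like factors are known to bind.
Cbs promoter, chr17:31637156-31637455: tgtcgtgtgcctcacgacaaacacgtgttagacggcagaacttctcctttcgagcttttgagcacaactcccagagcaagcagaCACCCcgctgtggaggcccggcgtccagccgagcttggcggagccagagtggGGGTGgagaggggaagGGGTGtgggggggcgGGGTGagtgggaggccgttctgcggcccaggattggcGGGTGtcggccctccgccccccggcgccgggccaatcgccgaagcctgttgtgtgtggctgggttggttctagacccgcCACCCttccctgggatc
Gnmt promoter, chr17:46729116-46729415: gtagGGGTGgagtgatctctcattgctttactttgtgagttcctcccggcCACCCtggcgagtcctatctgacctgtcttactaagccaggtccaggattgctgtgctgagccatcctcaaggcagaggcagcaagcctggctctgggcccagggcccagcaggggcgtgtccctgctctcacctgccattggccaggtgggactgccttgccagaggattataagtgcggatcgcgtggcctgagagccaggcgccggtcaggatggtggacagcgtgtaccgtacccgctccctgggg
Cbs holds 6 CACCC cores and Gnmt 2. Of 32817 promoters of the same length, 57.5% hold at least 1 core, 25.7% at least 2 and 0.329% at least 6. The Cbs promoter is 66.7% G and C and that of Gnmt 62%, against a median of 52.7%. The GC box GGGCGG (reverse complement CCGCCC), present in 35.6% of all promoters, occurs 2 times in Cbs, once sharing bases with a CACCC core, and not in Gnmt. Neither holds AGAACA (reverse complement TGTTCT), one arm of the site that the glucocorticoid receptor is known to bind, found in 19% of all promoters, or the full palindrome of both arms with 3 bases between, found in 0.00914%. In all, 7 of the 9 genes have a promoter in the table, and Cth and Cdo1 have none there. Mat2a, Ahcy and Mtr hold no CACCC core, Suox holds 1, and the 3 promoters of Mpst hold 1, 1 and 2. Letters in a window are a description and show no binding.

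**Figure D3:**
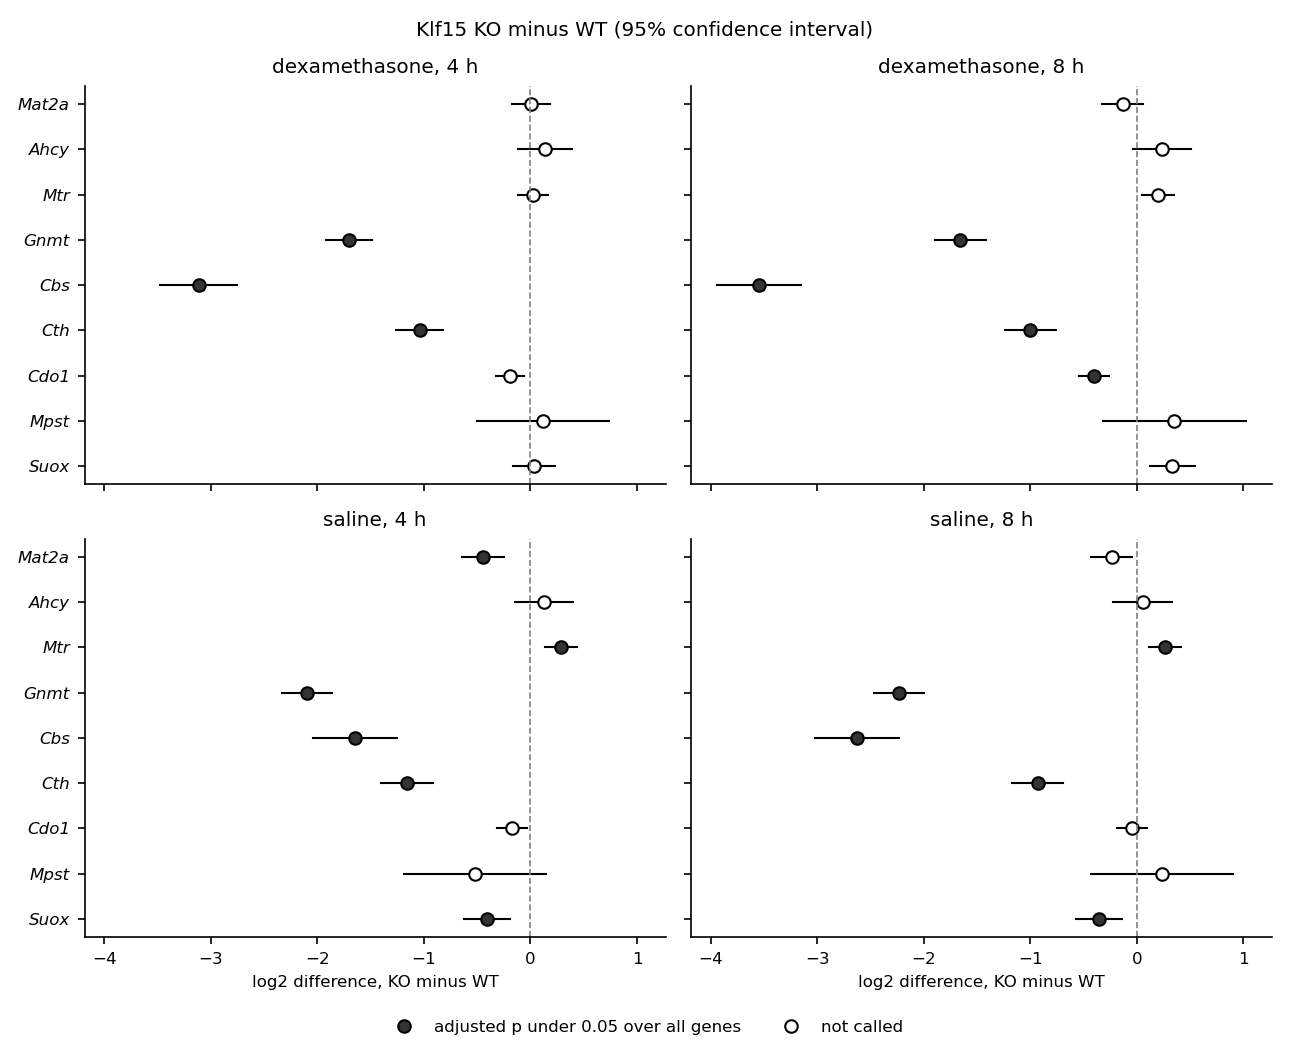
Log2 difference (horizontal axis) between Klf15 KO and WT for each of the 9 genes (rows), under dexamethasone (upper panels) and saline (lower panels) at 4 and 8 h. Points are limma estimates, lines are 95% confidence intervals, and filled points are called. Cbs lies between -3.54 and -1.65, Gnmt between -2.23 and -1.66, and Cth between -1.16 and -0.93.

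Under dexamethasone, few genes differed between the genotypes, and Cbs, Gnmt and Cth were among them. At 4 h, 3 of the 9 genes were called, all lower, against 0.971% of all genes called, 0.625% lower and 0.345% higher. The genotypes did not overlap for 4 of the 9, against 6.26% of all genes. At 8 h, 4 of 9 were called, all lower (Cdo1 in addition), against 4.95% of all genes called, 1.93% lower and 3.02% higher. There the genotypes did not overlap for 6 of the 9, against 21.8% of all genes. Cbs averaged -5.08 ± 0.34 (SD, n = 4) in KO and -1.96 ± 0.16 (SD, n = 4) in WT at 4 h, so that KO was at 11.5% of WT (-3.12, SE 0.176, adjusted p = 7.26e-11). At 8 h it averaged -4.96 ± 0.25 (SD, n = 4) in KO and -1.42 ± 0.17 (SD, n = 3) in WT, so that KO was at 8.57% of WT (-3.54, SE 0.19, adjusted p = 2.4e-11). Those falls of Cbs ranked 4 and 7 of 15350 genes. Over the alternatives tried, the difference lay between -3.24 and -2.07 at 4 h and between -3.63 and -2.38 at 8 h.

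Gnmt under dexamethasone was at 30.7% of its WT level in KO at 4 h (-1.70, SE 0.106, adjusted p = 2.51e-10) and at 31.7% at 8 h (-1.66, SE 0.114, adjusted p = 1.1e-09). Cth was at 48.6% at 4 h (-1.04, SE 0.108, adjusted p = 1.07e-06) and at 50.04% at 8 h (-1.0, SE 0.117, adjusted p = 7.55e-06). For Cbs, Gnmt and Cth every KO array lay below every WT array of its treatment and time. Cdo1 was 1.32-fold lower in KO at 8 h (-0.40, SE 0.0685, adjusted p = 0.00118), a call that ended with median scaling (-0.34, adjusted p = 0.133) and with the 2 groups fitted alone (adjusted p = 0.104). At 4 h its KO arrays were also all below its WT arrays, with a difference of -0.20 that was not called (adjusted p = 0.191).

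Suox under dexamethasone did not pass the test between genotypes. It differed by 0.03 at 4 h (95% interval -0.16 to 0.23, adjusted p = 0.97) and by 0.33 at 8 h (0.12 to 0.55, adjusted p = 0.0623). Mat2a differed by 0.01 and -0.13 (adjusted p = 0.995 and 0.388), Ahcy by 0.13 and 0.23 (adjusted p = 0.789 and 0.28), Mtr by 0.02 and 0.20 (adjusted p = 0.97 and 0.0975) and Mpst by 0.12 and 0.35 (adjusted p = 0.964 and 0.535).

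Under saline, 6 of the 9 genes were called at 4 h, where 25% of all genes were called, and the genotypes did not overlap for 7, against 37.3% of all genes. Gnmt, Cbs, Cth, Mat2a and Suox were lower, where 19% of all genes were, and Mtr was higher, where 6.07% were. At 8 h, 5 of 9 were called against 13.8% of all genes, and the genotypes did not overlap for 6, against 27.6% of all genes. Gnmt, Cbs, Cth and Suox were lower, against 8.76% of all genes, and Mtr was higher, against 5.03%. Gnmt in KO was at 23.4% of its WT level at 4 h (-2.10, SE 0.114, adjusted p = 6.47e-11) and at 21.3% at 8 h (-2.23, SE 0.114, adjusted p = 1.64e-11), the lowest adjusted p of the 9 genes at both times.

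Cbs averaged -4.59 ± 0.37 (SD, n = 3) in KO and -2.94 ± 0.14 (SD, n = 4) in WT under saline at 4 h, so that KO was at 31.9% of WT (-1.65, SE 0.19, adjusted p = 1.08e-05). At 8 h it averaged -5.38 ± 0.35 (SD, n = 4) in KO and -2.75 ± 0.05 (SD, n = 3) in WT, so that KO was at 16.2% of WT (-2.63, SE 0.19, adjusted p = 7.85e-09). With the bright to dim ratio as a covariate these falls were 2.22 and 2.89 on the log2 scale. Over all alternatives tried, the difference lay between -2.22 and -1.12 at 4 h and between -2.89 and -1.48 at 8 h. Cth was at 44.8% of WT at 4 h (-1.16, SE 0.117, adjusted p = 1.57e-06) and at 52.5% at 8 h (-0.93, SE 0.117, adjusted p = 3.35e-05). The genotypes did not overlap for any of the 3 genes. In all 4 combinations of treatment and time, the calls on Cbs, Gnmt and Cth held under every alternative tried. The KO and WT arrays shared no slide under dexamethasone at either time or under saline at 4 h. Under saline at 8 h they shared only slide 1. Where no slide was shared, the fits with slide as a block part genotype from slide only through the other groups.

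The smaller genotype differences under saline did not hold in the same way. Suox was lower in KO by 0.41 at 4 h (adjusted p = 0.00731) and by 0.36 at 8 h (adjusted p = 0.0256), without overlap. With the bright to dim ratio as a covariate its differences were -0.05 and -0.19 (adjusted p = 0.908 and 0.181). Arrays of several groups shared slides, and with slide as a fixed block the 4 h difference was -0.27 (adjusted p = 0.115). The 8 h call also ended without WT saline replicate 37 (-0.38, adjusted p = 0.0576) or 39 (-0.32, adjusted p = 0.11) or KO saline replicate 47 (-0.34, adjusted p = 0.0575). Mat2a was lower in KO by 0.44 at 4 h (adjusted p = 0.00215), and its difference was -0.21 with the covariate (adjusted p = 0.542). Its 8 h difference was -0.24 (adjusted p = 0.0918). Mtr was higher in KO by 0.28 at 4 h (adjusted p = 0.00745) and 0.26 at 8 h (adjusted p = 0.0193), a call that ended under quantile normalization (0.15 and 0.28, adjusted p = 0.302 and 0.0562) and with the ratio covariate (0.25 at each time, adjusted p = 0.417 and 0.0504). At 8 h it also ended without WT saline replicate 37 or 39 (adjusted p = 0.107 and 0.0644) or KO saline replicate 47 (adjusted p = 0.0644). Cdo1 differed by -0.17 and -0.05, Ahcy by 0.13 and 0.05 and Mpst by -0.52 and 0.23 at 4 and 8 h, none of them called (adjusted p = 0.0648 and 0.653, 0.498 and 0.81, and 0.249 and 0.642). Some marker sums also separated the genotypes under saline, each at 4 h only or at 8 h only. Macrophage markers at 4 h summed to 74.5 to 85.8 in KO and 89.9 to 107.3 in WT, and endothelial markers to 95.1 to 101.4 and 102.0 to 115.8. At 8 h T cell markers summed to 1.12 to 1.33 in KO and 1.47 to 1.70 in WT, and adipocyte markers to 6.09 to 6.92 in KO and 7.69 to 12.7 in WT. None of these sums overlapped between genotypes at the time given. B cell markers at 4 h, at 6.37 to 9.98 in KO and 9.78 to 14.2 in WT, overlapped. The part of these cell types in the differences was not tested.

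The difference between the dexamethasone effects of the 2 genotypes asks whether a response differs with genotype. Cbs had the smaller effect in KO at both times. Its effect in KO minus that in WT was -1.47 at 4 h (SE 0.259, adjusted p = 0.00324) and -0.92 at 8 h (SE 0.269, adjusted p = 0.0445). Suox went the other way, with 0.44 at 4 h (SE 0.141, adjusted p = 0.0355) and 0.69 at 8 h (SE 0.147, adjusted p = 0.0117). At 4 h, 3 of the 9 genes were called against 17% of all genes. Suox and Mat2a (0.45, adjusted p = 0.0205) had the larger effect in KO, as 13.8% of all genes did, and Cbs the smaller, as 3.15% did. At 8 h, 4 of 9 were called against 6.53% of all genes. Suox and Gnmt (0.58, SE 0.161, adjusted p = 0.0352) had the larger effect in KO, as 4.92% of all genes did, and Cbs and Cdo1 (-0.35, SE 0.0969, adjusted p = 0.0337) the smaller, as 1.61% did.

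**Figure D4:**
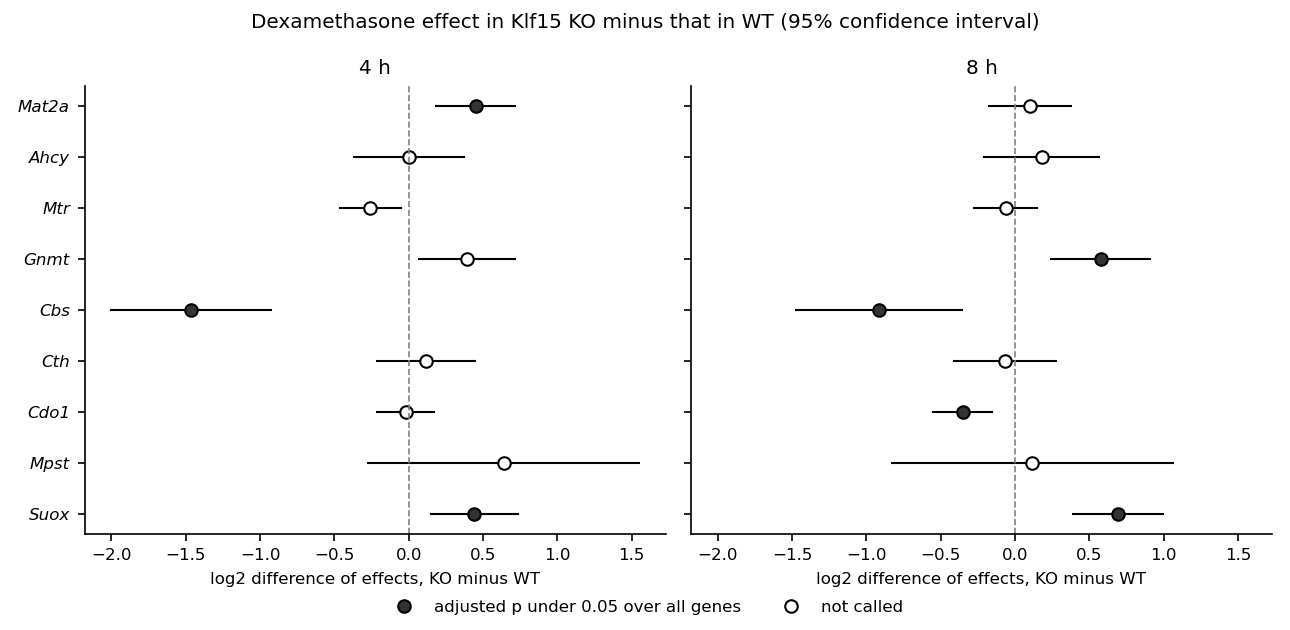
Difference between the log2 dexamethasone effects of Klf15 KO and WT (horizontal axis) for each of the 9 genes (rows) at 4 h and 8 h. Points are limma estimates, lines are 95% confidence intervals, and filled points are called. Cbs lies left of 0 at both times, Suox right of 0, and Cth at 0.12 and -0.07.

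Cth and Gnmt rose in both genotypes. The effects on Cth differed by 0.12 at 4 h (95% interval -0.21 to 0.45, adjusted p = 0.665) and by -0.07 at 8 h (-0.41 to 0.27, adjusted p = 0.816), and those on Gnmt by 0.39 at 4 h (0.07 to 0.71, adjusted p = 0.0857). Ahcy, Mtr and Mpst were not called at either time, with differences of 0.00 and 0.18, -0.26 and -0.06, and 0.64 and 0.12. Cdo1 differed by -0.02 at 4 h and Mat2a by 0.10 at 8 h (adjusted p = 0.911 and 0.65).

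These differences use the KO saline arrays, which stood apart in the bright to dim ratio. With the bright to dim ratio as a covariate, Cbs differed by -0.91 at 4 h and -0.56 at 8 h (adjusted p = 0.245 and 0.219) and Suox by 0.09 and 0.47 (adjusted p = 0.811 and 0.0637). Mat2a at 4 h, Gnmt at 8 h and Cdo1 at 8 h then differed by 0.22, 0.48 and -0.39 (adjusted p = 0.527, 0.123 and 0.0603), so that none of the 7 was called. With slide as a fixed block, Suox at 4 h differed by 0.29 (adjusted p = 0.233), Gnmt at 8 h by 0.37 (adjusted p = 0.181), Cbs at 8 h by -0.81 (adjusted p = 0.135) and Mat2a at 4 h by 0.48 (adjusted p = 0.0505). With slide as a random block, Suox at 4 h differed by 0.36 (adjusted p = 0.0695) and Gnmt at 8 h by 0.44 (adjusted p = 0.0657). The difference for Cbs at 4 h held when any 1 of 15 arrays was left out (-1.65 to -1.28), as did that for Suox at 8 h with any 1 of 14 (0.64 to 0.73).

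The other calls each depended on single arrays. Cbs at 8 h lost its call (adjusted p from 0.0653 to 0.0949) without WT saline replicate 37, 38 or 39, KO saline 47 or 48, WT dexamethasone 54, 55 or 56, or KO dexamethasone 63 or 64, with values of -1.0 to -0.75. Gnmt at 8 h lost its call (0.052 to 0.0981) without WT saline 38 or 39, KO saline 45, 46 or 47, WT dexamethasone 54, 55 or 56, or KO dexamethasone 61 or 64, with values of 0.50 to 0.60. Cdo1 at 8 h lost it (0.0518 to 0.0763) without WT saline 37 or 39, KO saline 45 or 46, WT dexamethasone 55 or 56, or KO dexamethasone 62 or 63, with values of -0.36 to -0.30. Suox at 4 h lost it (0.0589 to 0.093) without WT saline 36, KO saline 41 or 43, WT dexamethasone 49 or 52, or KO dexamethasone 57 or 58, with values of 0.36 to 0.44. Mat2a at 4 h lost it without KO saline 41 (0.39, adjusted p = 0.0568) or KO dexamethasone 58 (0.40, adjusted p = 0.053).

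Between 4 and 8 h the dexamethasone effect shifted for Cdo1 in both genotypes. The 8 h effect minus the 4 h effect was 0.77 in WT (SE 0.0969, adjusted p = 2.1e-05) and 0.44 in KO (SE 0.0934, adjusted p = 0.00869). In WT, 2 of the 9 genes were called against 6.01% of all genes, Cdo1 higher (2.87% of all genes) and Suox lower (3.14%). Suox had the smaller effect at 8 h (-0.54, SE 0.147, adjusted p = 0.0291). In KO, 2 of 9 were called against 3.01% of all genes, Cdo1 higher (1.22%) and Cth lower (1.79%). Cth had the smaller effect at 8 h there (-0.72, SE 0.159, adjusted p = 0.0112), and in WT its shift was -0.53 (adjusted p = 0.0568). The shifts of Cbs were 0.90 in KO (adjusted p = 0.0612) and 0.35 in WT (adjusted p = 0.591). In KO, Cbs averaged -4.59 at 4 h and -5.38 at 8 h under saline, and -5.08 and -4.96 under dexamethasone.

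The call on Suox in WT was lost (adjusted p from 0.0503 to 0.0835) without WT saline 4 h replicate 33 or 35, WT saline 8 h replicate 39, WT dexamethasone 4 h replicate 50 or 51, or WT dexamethasone 8 h replicate 55 or 56, with values of -0.53 to -0.47. That on Cth in KO ended without KO saline replicate 41 (-0.61, adjusted p = 0.0581). Saline lungs at 8 h against 4 h, averaged over genotypes, gave 0 of 9 calls by limma, where 3.26% of all genes were called, 2.08% higher and 1.18% lower. At an unadjusted limma p under 0.05 there were 3: Gnmt (0.26, adjusted p = 0.0816), Cbs (-0.29, adjusted p = 0.314) and Mtr (-0.11, adjusted p = 0.335). The value for Cbs averages opposite directions, with saline means of -4.59 and -5.38 in KO and -2.94 and -2.75 in WT at 4 and 8 h.

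Ordered over the 8 groups, Gnmt was highest in WT under dexamethasone at 8 h (2.32 ± 0.04, SD, n = 3) and then at 4 h (1.88 ± 0.08, SD, n = 4). KO dexamethasone at 8 h (0.67 ± 0.19, SD, n = 4) overlapped WT saline at 8 h (0.58 ± 0.12, SD, n = 3), and KO dexamethasone at 4 h (0.18 ± 0.10, SD, n = 4) overlapped WT saline at 4 h (0.25 ± 0.10, SD, n = 4). The KO saline groups at 8 h (-1.66 ± 0.17, SD, n = 4) and 4 h (-1.85 ± 0.29, SD, n = 3) came last and overlapped each other. So the dexamethasone level of Gnmt in KO lay beside the saline level in WT of the same time.

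Cth had WT dexamethasone at 4 h (0.54 ± 0.15, SD, n = 4) and 8 h (-0.03 ± 0.14, SD, n = 3) at the top and KO saline at 8 h (-1.62 ± 0.25, SD, n = 4) and 4 h (-1.81 ± 0.20, SD, n = 3) at the bottom. KO dexamethasone at 4 h (-0.50 ± 0.12, SD, n = 4) overlapped the WT saline level at 4 h (-0.66 ± 0.13, SD, n = 4). At 8 h KO dexamethasone (-1.03 ± 0.05, SD, n = 4) lay below WT saline (-0.69 ± 0.08, SD, n = 3) without overlap. Cbs split by genotype: the 15 KO arrays spanned -5.68 to -4.22 and the 14 WT arrays -3.06 to -1.24. Within KO all neighbouring groups of Cbs overlapped. Suox split by treatment: both dexamethasone groups at 4 h overlapped (3.23 ± 0.23 in KO and 3.20 ± 0.13 in WT, SD, n = 4 each), and all 4 saline groups lay below all dexamethasone groups.

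Mat2a, Ahcy, Mtr and Mpst moved over narrower ranges or with more scatter. Mat2a spanned 4.01 to 4.77 in KO and 4.37 to 5.04 in WT, Mtr -2.51 to -2.11 in KO and -2.64 to -2.30 in WT, and Ahcy -3.25 to -2.38 in KO and -3.30 to -2.71 in WT. All neighbouring groups in the order of Ahcy, Mtr and Mpst overlapped. Mpst varied most within groups, with an SD of 0.60 (n = 4) in WT saline at 4 h, where single arrays lay between -1.23 and 0.20.

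Over the 29 arrays, which share their treatment, genotype and scaling, Gnmt correlated with Cth (Pearson r = 0.895) and with Cbs (0.757), and Cbs with Cth (0.742). After subtraction of group means the same 3 values were 0.09, 0.01 and 0.00, so the likeness lay between the groups and not among arrays of a group. Suox correlated with Cth (0.709) and Gnmt (0.687). Among 14909 genes without a missing value, the 3 most like Gnmt were Rgma, Ivd, a dehydrogenase of leucine breakdown, and Abat, the GABA transaminase (r = 0.971, 0.965 and 0.964). Those most like Cbs were Sfxn2, Gstz1, an enzyme of tyrosine breakdown, and Azgp1 (0.96, 0.96 and 0.956). For Cth they were Aass, the first enzyme of lysine breakdown, Zfyve21 and Klf15 itself (0.949, 0.933 and 0.927). After subtraction of group means, the values in the same order were 0.423, 0.342 and 0.674 for Gnmt. They were -0.0035, -0.155 and 0.569 for Cbs, and 0.124, 0.301 and 0.547 for Cth.

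The likeness for Suox was with Dgka, Bnip3 and Maff (0.974, 0.974 and 0.972), and for Cdo1 with Scel, Fmo1 and Dcbld1 (0.95, 0.872 and 0.856). Mat2a was closest to Zfp281, Pkd2 and Phf23 (0.883, 0.881 and 0.862), Ahcy to Bik, Trpv6 and Rilp (0.807, 0.779 and 0.767) and Mtr to Slc20a2, Mindy4 and Tes (0.843, 0.77 and 0.763). Mpst was closest to Rab5c, Tatdn2 and Arl6ip5 (0.875, 0.863 and 0.812). There the correlation after subtraction of group means was higher (0.919, 0.916 and 0.859), so its scatter was shared with those genes from array to array.

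The other genes of the pathway were counted in 4 lists. Their values are given without the bright to dim ratio as a covariate. Comparisons with the KO saline arrays use the arrays that stood apart in that ratio. Whether those partner values hold with the covariate is not shown. The partner lists are read against the share of all genes called with dexamethasone. That share was 25% higher and 17.6% lower in KO at 4 h, and 25.8% higher and 17.2% lower at 8 h. In WT it was 14.3% higher and 22.4% lower at 4 h, and 9.32% higher and 14.3% lower at 8 h.

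Of 8 tested partners of the cycle (Bhmt2 did not pass the filter), dexamethasone called 3 in KO at 4 h, all higher, and 5 at 8 h, all higher. In WT it called 1 higher and 1 lower at 4 h and 1 higher at 8 h. List medians at 4 and 8 h were 0.19 and 0.28 in KO and -0.0042 and 0.15 in WT, beside 0.05 and 0.11 in KO and -0.03 and -0.06 in WT over all genes. Adk, the kinase that clears adenosine formed by Ahcy, rose in KO by 0.43 and 0.44 (adjusted p = 0.00244 and 0.00103). Adk was lower in KO than in WT under saline at 4 h (-0.39, adjusted p = 0.0116). In that comparison 25% of all genes were called. With the bright to dim ratio as a covariate, 21 of 15350 genes were called there, against 3842 without it. The rises of Adk in KO use the KO saline arrays too. Mat1a, the liver form of the synthetase, was lower in KO averaged over treatments and times (-0.38, SE 0.0558, adjusted p = 7.24e-05).

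**Figure D5:**
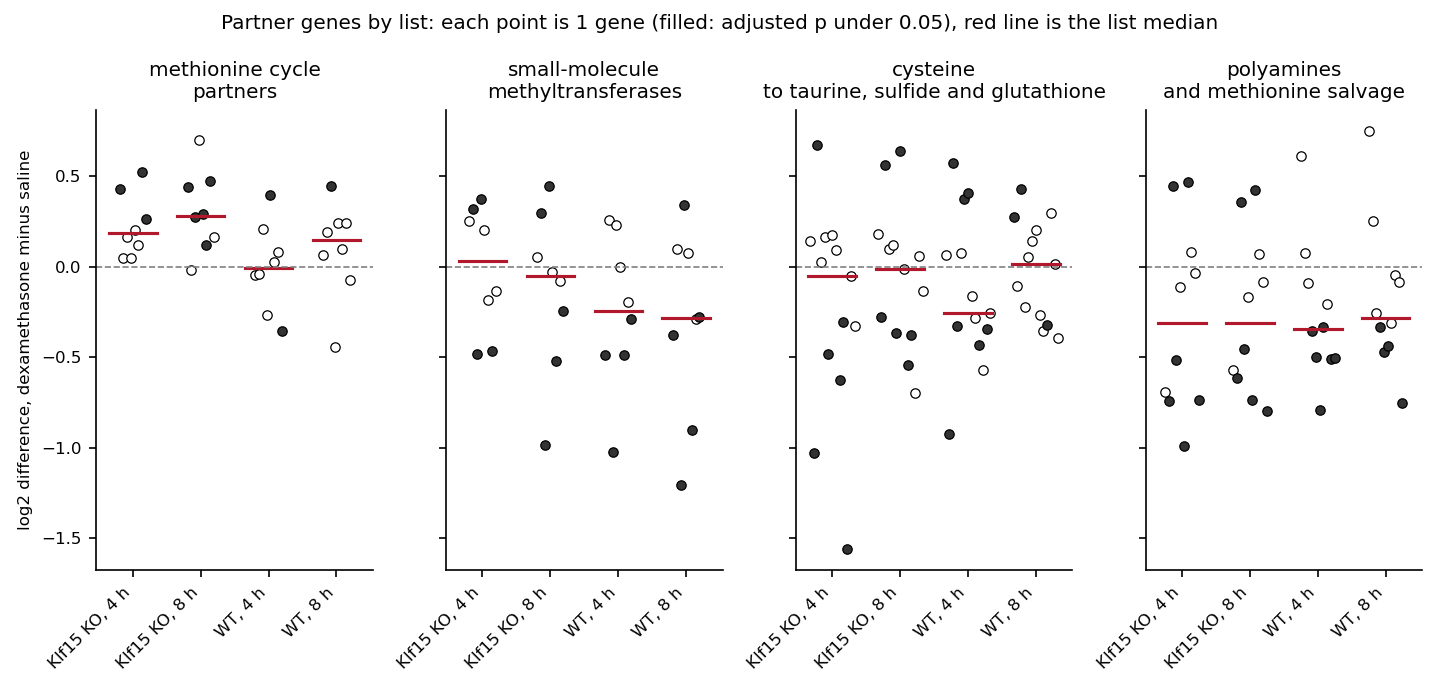
Log2 difference between dexamethasone and saline (vertical axis) for the partner genes of 4 lists (panels), in Klf15 KO and WT at 4 and 8 h (horizontal axis). Each point is 1 gene, filled where called, and red lines are list medians. The polyamine and methionine salvage genes have medians of -0.28 to -0.34 in all 4 comparisons.

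Among 8 methyltransferases that act on small molecules, 2 were called higher and 2 lower in KO at 4 h, 2 higher and 3 lower at 8 h, 4 lower in WT at 4 h, and 1 higher and 4 lower at 8 h. Their medians were 0.04 and -0.05 in KO and -0.24 and -0.28 in WT, beside 0.05 and 0.11 in KO and -0.03 and -0.06 in WT over all genes. Gamt, which makes creatine with S-adenosylmethionine and is the counterpart of Gnmt as a methyl outlet, fell in all 4 comparisons. Its falls were 0.48 and 0.98 on the log2 scale in KO and 1.02 and 1.21 in WT (adjusted p = 0.00207, 2.29e-07, 9.89e-08 and 3.86e-07). Hnmt, which methylates histamine, rose by 0.38 and 0.45 in KO (adjusted p = 0.00442 and 0.000514) and by 0.34 in WT at 8 h (adjusted p = 0.0243).

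Of 13 genes around cysteine, taurine, sulfide and glutathione, 1 was called higher and 5 lower in KO at 4 h, 2 higher and 4 lower at 8 h, 3 higher and 4 lower in WT at 4 h, and 2 higher and 1 lower at 8 h. Medians were -0.05 and -0.01 in KO and -0.26 and 0.01 in WT. Csad, which follows Cdo1 on the way to taurine, rose in all 4: by 0.67 and 0.56 in KO and by 0.57 and 0.43 in WT (adjusted p = 8.43e-08, 5.28e-07, 3.12e-07 and 0.000205). Chac1, which degrades glutathione, fell at 4 h by 1.03 in KO and by 0.92 in WT (adjusted p = 9.65e-08 and 1.62e-07). Gss, glutathione synthetase, was higher in KO than in WT under saline (0.44 and 0.41, adjusted p = 0.0119 and 0.0284). Of all genes, 25% were called between genotypes under saline at 4 h and 13.8% at 8 h. With the bright to dim ratio as a covariate, 21 of 15350 genes were called at 4 h, against 3842 without it. At 8 h 2326 were called with the covariate, against 2117 without it.

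Of 10 genes of polyamine synthesis and methionine salvage, 2 were called higher and 4 lower in KO at each time, and in WT 6 were lower at 4 h and 4 at 8 h with none higher. Their medians were -0.31 at each time in KO and -0.34 and -0.28 in WT. Mtap, which recovers methionine from the by-product of polyamine synthesis, fell by 0.99 and 0.73 in KO and by 0.79 and 0.44 in WT (adjusted p = 4.87e-08, 1.51e-06, 4.2e-07 and 0.00462). Srm, spermidine synthase, fell by 0.73 and 0.80 in KO and by 0.51 and 0.75 in WT (adjusted p = 0.00059, 0.000126, 0.00825 and 0.00199). Between genotypes under dexamethasone, the 4 lists together held 1 call at 4 h (Mat1a, -0.52, adjusted p = 0.0113) and 3 at 8 h: Ado (-0.31, adjusted p = 0.0451), Adi1 (-1.17, adjusted p = 0.0416) and Odc1 (0.51, adjusted p = 0.035). Of all genes, 0.971% were called between genotypes under dexamethasone at 4 h and 4.95% at 8 h.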

How the data were processed

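Lung RNA of 29 mice was hybridised to single-colour Agilent whole mouse genome arrays. The deposited scanner files hold Feature Extraction output, version 10.7.3.1 per the file headers (10.6 per the submitters' processing notes), and their processed intensities were background-subtracted and detrended within each array, per the file headers. A series table of log2 values, deposited by the authors with no stated method, served as an alternative only.

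Spots of 1 probe were averaged, control and outlier spots left out, and log2 intensities centred on each array's 75th percentile. A probe was kept if 3 or more arrays of any group had it well above background, as held for 33931 of 41174. Accessions were matched to RefSeq symbols: 24844 probes name 1 gene and 16330 none. The brightest kept probe stood for each of 15350 genes, of which 432 lack a value on at least 1 array. One limma 3.58.1 model (R 4.3.3) with 8 group means, tested on simulated data, gave 14 comparisons, with p-values adjusted by Benjamini-Hochberg over all genes. Figures were drawn with matplotlib 3.10.9.

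All 9 members were named. In each partner list every gene was counted and up to 4 called genes with the lowest p could be named, besides Klf15, Nr3c1, Fkbp5 and Tsc22d3 as checks and the 3 genes most like each member. The members, lists and markers were chosen with earlier results of these data known. Alternatives changed the scaling, background correction, dim-probe filter, choice of probe, slide block, variance model, array weights, quality covariates, arrays in the fit and the source of the values. The 8 slides held 2 to 4 arrays each. The labels call the replicates biological, and their small number limits how precise the values are.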

Additional observations from a re-analysis of the deposited data

Results flagged for a closer look

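In 3 of 45 groups of 4 arrays, 1 array lay far from the others by Dixon's test, and chance flags about 5% of groups. Ahcy stood at -2.84 on WT dexamethasone 4 h replicate 50, with the nearest array at -3.16 and the far end at -3.20. Cdo1 stood at 3.14 on WT dexamethasone 4 h replicate 51, with the nearest at 2.99 and the far end at 2.97. Mtr stood at -2.34 on WT saline 4 h replicate 33, with the nearest at -2.47 and the far end at -2.50.

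The dexamethasone effect differed between KO and WT, by the limma test of the difference, for Cbs (-1.47), Mat2a (0.45) and Suox (0.44) at 4 h and for Suox (0.69), Gnmt (0.58), Cdo1 (-0.35) and Cbs (-0.92) at 8 h. With the bright to dim ratio as a covariate none of these 7 differences was called (adjusted p from 0.0603 to 0.811). The effect at 8 h differed from that at 4 h for Cth (-0.72) and Cdo1 (0.44) in KO and for Cdo1 (0.77) and Suox (-0.54) in WT.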

How the results depend on the processing

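Of 126 pairs of a gene and a comparison, 57 were called, 53 of 126 when every probe was fitted as its own row. Of the 57, 35 kept their direction and call under every alternative and 22 lost the call under at least 1. The fall of Cbs with dexamethasone in KO at 4 h turned to 0.070 with the bright to dim ratio as a covariate and to 0.014 within slide 4. Within slides, 36 of 37 values had the direction of the main value, over 27 of the 57 calls. They cover dexamethasone against saline and, between genotypes, only saline at 8 h on slide 1, with 1 array of each genotype. None cover the other genotype comparisons, the differences of effects or the shifts with time. The counts of genes called moved by more than 1.5 times as follows. For dexamethasone in KO at 4 h, 7 became 4 with normexp on the median signal (5563 of 15350 genes called) and 4 with the ratio covariate (4369, against 6550 without either), and at 8 h 5 became 3 with normexp and 3 with the deposited table. Between genotypes under saline, 6 became 3 at 4 h with the covariate, which left 21 of all 15350 genes called, against 3842 without it, and 5 became 3 at 8 h with quantile normalization, median scaling, the covariate or only the groups compared. For the difference of effects at 4 h, 3 became 1 with quantile normalization, normexp, the deposited table or slide as a fixed block and 0 with the covariate, which left 3 of all 15350 genes called, against 2605 without it. At 8 h, 4 became 0 with median scaling or the covariate, 2 with the slide block and 1 with only the groups compared. For the shift with time in KO, 2 became 1 with median scaling and 0 with only the groups compared, and in WT 1 with either. For saline at 8 h against 4 h, 0 became 1 with slide as a random block and 2 with array weights. The cause of these changes was not tested. Leaving out 1 array at a time gave 5 to 7 and 4 to 6 calls for dexamethasone in KO at 4 and 8 h, 5 to 5 in WT at both, 6 to 6 and 3 to 5 between genotypes under saline, 3 to 3 and 4 to 4 under dexamethasone, 6 to 6 averaged, 1 to 4 and 1 to 3 for the difference of effects, 1 to 3 for the shift in each genotype and 0 to 1 for saline times. Median scaling moved the median over all genes between genotypes under saline at 4 h to -0.20, against -0.04 with the 75th percentile. All 9 probes were well above background on all 29 arrays. The size of the averaged genotype difference of Cbs still moved with the alternatives, from -2.92 to -1.76, against -2.73 in the main fit. No paired analysis was possible because the replicate numbers are not shared between groups. The slide served as the block instead, as a fixed and as a random term, and values within slides are counted above.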
